A study of Homo sapiens with 9 samples.

Results

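The 10 genes described here encode the enzymes of serine synthesis (PHGDH, PSAT1 and PSPH), the enzymes that exchange serine and glycine (SHMT1 and SHMT2), the mitochondrial folate enzymes MTHFD2, MTHFD1L and ALDH1L2, and the neutral amino acid carriers SLC1A4 and SLC1A5. They were found by symbol among the 58884 genes of the count table, and all 10 were present. RNA was sequenced from 3 sub-populations of MDA-MB-231, a claudin-low breast cancer cell line: the parental line (Par), the lung metastatic line LM2 and the brain metastatic line BrM2. LM2 and BrM2 were obtained from the parental line by selection in mice, so each stands for 1 selected population and not for metastases in general. Every group received the same medium, DMEM with 10% serum, penicillin and streptomycin, for 3 days before harvest, and no group was treated. Each line had 3 replicates, harvested at different passages.

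Cells make serine from a glycolytic intermediate: PHGDH oxidizes it, PSAT1 transfers an amino group to the product, and PSPH removes the phosphate. SHMT2 in mitochondria and SHMT1 in the cytosol split serine into glycine and a carbon unit carried on folate. MTHFD2 and MTHFD1L process that unit to formate, which leaves the mitochondrion and feeds purine and thymidylate synthesis, and ALDH1L2 can oxidize it to carbon dioxide. PHGDH is known as a gene that breast cancer cells can depend on where serine is scarce, and the brain is an organ whose interstitial fluid is poor in amino acids.

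Transcripts of PHGDH stood out among the 10 genes: they were 14.9-fold higher in LM2 and 10.5-fold higher in BrM2 than in Par. The order of LM2 and BrM2 turned when LM2 replicate 1 was left out. PSAT1 rose 2.47-fold in LM2, and MTHFD2 rose 1.57-fold in BrM2. These were the genes past an adjusted p of 0.05, that is 2 of the 9 tested genes in each comparison with Par (PHGDH and PSAT1 in LM2, PHGDH and MTHFD2 in BrM2), in edgeR's quasi-likelihood test with the line as the only term. Over all 13055 genes tested, 8.69% were called in LM2 against Par (4.17% rose) and 13.3% in BrM2 against Par (6.25% rose). The libraries varied together by replicate number, mainly through replicate 1, which stood apart in each line. With the number in the model the common dispersion was 0.0207 in place of 0.11. In that model 8 of the 9 genes rose in each comparison, all but PSPH in LM2 and all but SHMT1 in BrM2. There 34.5% of all genes were called in LM2 and 42.7% in BrM2, and 15.5% and 19.5% rose. When replicate 1 was left out of the model without the replicate number, 7 of the 9 genes were called in LM2 and 8 in BrM2, beside 33.1% and 40.4% of all genes. The fitted difference was positive for all 9 genes in both comparisons, with a median log2 fold change of 0.81 in LM2 and 0.58 in BrM2, against 0.01 and -0.02 over all genes tested. Both comparisons share the Par libraries. All libraries of LM2 were above all of Par for 5 of the 9 genes, beside 11.8% of all genes tested, and all libraries of BrM2 were above all of Par for 7, beside 15.2%. In bulk RNA, a change in every cell and a change in the share of cells that express a gene cannot be told apart.

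**Figure D1:**
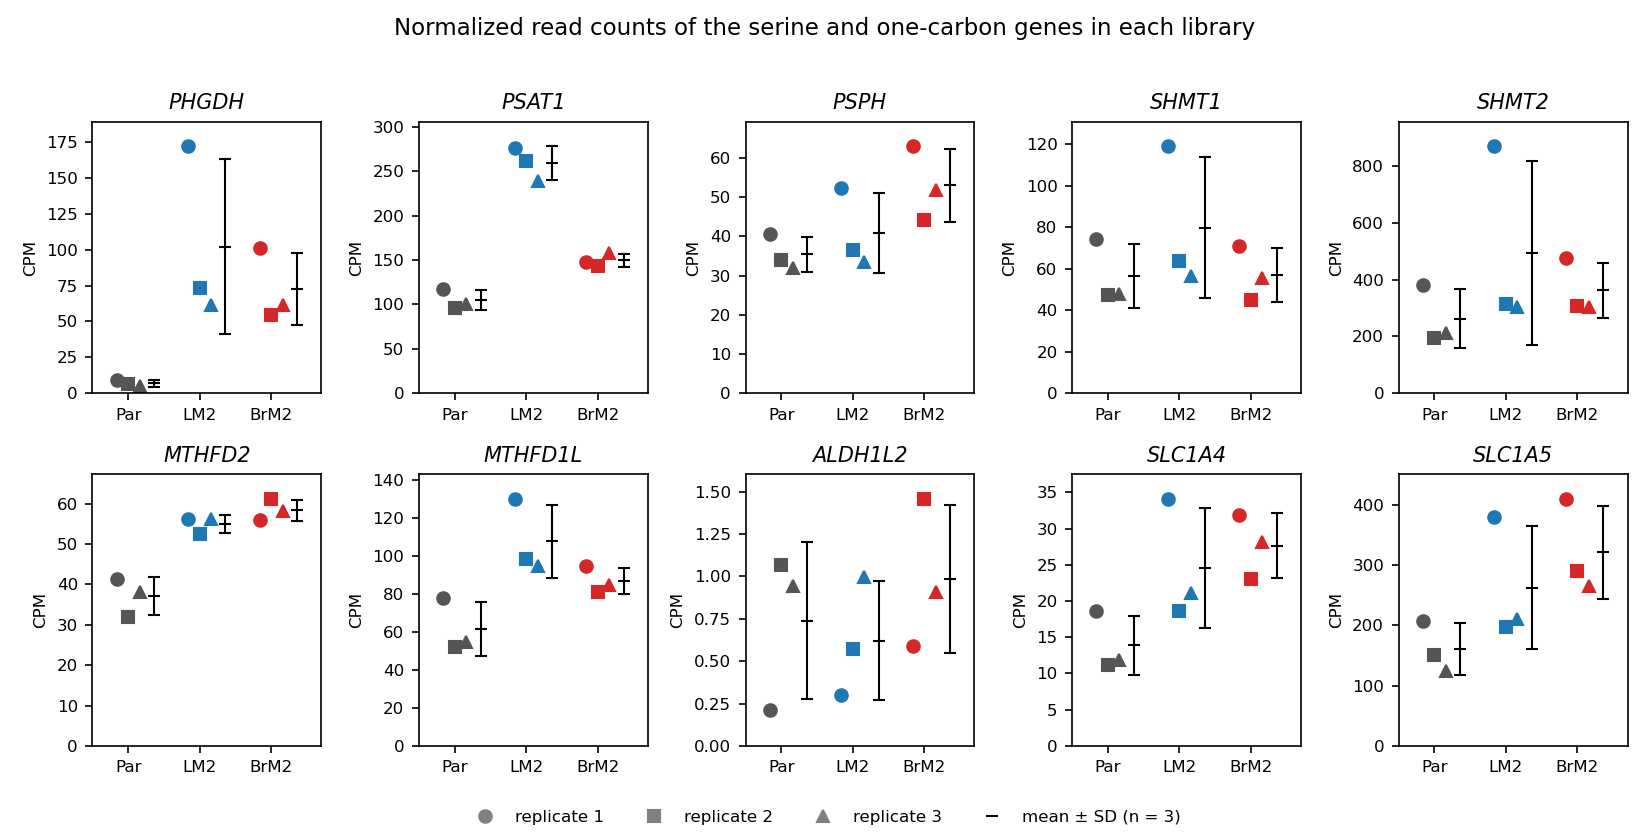
Normalized read counts (CPM, counts scaled to a library of 1e+06 reads, linear axes from 0) of the 10 genes in each of the 9 libraries, with the line on the horizontal axis, a symbol for each replicate number, and the mean and SD of 3 replicates beside the points. For PHGDH the 3 Par libraries lie between 5.03 and 9.40 CPM and the 6 metastatic libraries between 54.6 and 172 CPM.

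Counts on genes totalled 19878879 to 23948742 for the Par libraries, 23581487 to 24511786 for LM2 and 14371858 to 22055215 for BrM2. Replicate 1 stood apart from the other two in each line, and it was the highest library of its line for 7 of the 10 genes in all 3 lines: PHGDH, PSPH, SHMT1, SHMT2, MTHFD1L, SLC1A4 and SLC1A5. Averaged over the lines, replicate 1 exceeded the mean of replicates 2 and 3 by 1.01 on the log2 scale for SHMT2 and by 0.97 for PHGDH, against a median of 0.01 over all genes tested, and by 0.13 for PSAT1 and 0.07 for MTHFD2. Its part in the differences between lines was not tested. Of 11 mammary lineage markers, the mesenchymal and stem cell markers VIM and CD44 averaged 611 CPM or more in every line, and the luminal keratins were also abundant, KRT8 at 853 CPM in Par, 517 in LM2 and 509 in BrM2 and KRT18 at 410.4 to 432 CPM. ERBB2 averaged 83.7 to 112 CPM, the epithelial markers EPCAM and CDH1 at most 7.17 CPM, and ESR1, PGR, KRT5 and KRT14, which mark hormone-responsive and basal mammary cells, at most 0.458 CPM. VIM itself rose in both metastatic lines (log2 fold change 1.09 in LM2, adjusted p = 0.020, and 1.05 in BrM2, adjusted p = 0.016). KRT8 fell in both with the replicate number in the model (-0.82 and -0.79, adjusted p = 0.00490 and 0.00465) and was not called without it. In that model ERBB2 also fell in both (-0.41 and -0.43, adjusted p = 0.0297 and 0.0198), and EPCAM fell in LM2 (-0.61, adjusted p = 0.0220). Of 10 markers of other cell types, 7 averaged at most 0.136 CPM in every line, and OLIG2 had no count. The other 3, CD14, PECAM1 and GFAP, averaged between 1.92 and 13.5 CPM and were not called without the replicate number. With it, CD14 and PECAM1 fell in both metastatic lines and GFAP fell in BrM2.

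PHGDH, the dehydrogenase that opens serine synthesis (ENSG00000092621, chr1:119711934-119744215 in GRCh38.p14), was measured at 9.40, 6.19 and 5.03 CPM in Par replicates 1, 2 and 3. It reached 172, 73.1 and 61.3 CPM in LM2 and 101, 54.6 and 61.4 CPM in BrM2. The metastatic lines did not overlap Par, the lowest of their libraries standing far above the highest Par library, while LM2 and BrM2 overlapped each other. The log2 fold change was 3.89 ± 0.49 (SE) in LM2 (adjusted p = 0.00152) and 3.40 ± 0.48 in BrM2 (adjusted p = 0.00192). With the replicate number in the model it was 3.80 ± 0.18 and 3.40 ± 0.18. Within a replicate number, LM2 exceeded Par by 11.8-fold to 18.3-fold and BrM2 exceeded Par by 8.82-fold to 12.2-fold. Ranked by log2 fold change, PHGDH was 84th from the top of the 13055 genes in LM2 and 161st in BrM2. The call held in all 9 fits that left out 1 library, for LM2 and for BrM2 alike. Without LM2 replicate 1 the log2 fold change in LM2 was 3.29 ± 0.35 (adjusted p = 0.00118), below the 3.40 of BrM2. BrM2 and LM2 differed by -0.50 ± 0.43, which was not called (adjusted p = 0.606), and the difference was 0.11 once LM2 replicate 1 was left out.

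PSAT1, the aminotransferase of the second step (ENSG00000135069, chr9:78297125-78330093), was measured at 118, 96.5 and 101 CPM in Par, 277, 261 and 239 CPM in LM2, and 148, 143 and 157 CPM in BrM2. The 3 lines did not overlap, in the order Par, BrM2, LM2, and the replicates of a line lay close together. PSAT1 rose in LM2 by 1.30 ± 0.16 on the log2 scale (adjusted p = 0.00129). In BrM2 the log2 fold change was 0.51 ± 0.16 (adjusted p = 0.0672), and it passed the threshold with the replicate number in the model (0.52 ± 0.11, adjusted p = 0.00394). PSAT1 was lower in BrM2 than in LM2 by a log2 fold change of -0.79 ± 0.16 (adjusted p = 0.0155), the single call among the 9 genes in that comparison, where 8.10% of all genes were called and 3.99% were lower. That call was kept in 6 of 9 fits that left out 1 library, and it was lost without LM2 replicate 2, BrM2 replicate 2 or BrM2 replicate 3.

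PSPH, the phosphatase that releases serine (ENSG00000146733, chr7:56011064-56051444), moved least of the 3 in LM2. It was measured at 40.5, 33.8 and 32.0 CPM in Par, 52.4, 36.5 and 33.5 CPM in LM2, and 62.9, 44.2 and 51.7 CPM in BrM2. Par and LM2 overlapped, and all BrM2 libraries were above all Par libraries. The log2 fold change was 0.20 ± 0.23 in LM2 (adjusted p = 0.747, and 0.282 with the replicate number), and -0.02 ± 0.22 without LM2 replicate 1. In BrM2 it was 0.58 ± 0.24 (adjusted p = 0.163), which passed with the replicate number in the model (0.57 ± 0.13, adjusted p = 0.00410). Of the 50-base stretches in transcripts of PSPH, 6.10% also occurred in another gene, mostly the pseudogene PSPHP1, and 4.58% of those of PSAT1, mostly in PSAT1P3, so part of their counts is uncertain. PHGDH shared none.

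Per kilobase of transcript, the 3 enzymes of serine synthesis together amounted to 69.2 ± 8.40 CPM per kb (SD, n = 3) in Par, 193 ± 45.4 in LM2 and 133 ± 18.5 in BrM2. PHGDH made up 5.24% ± 1.11 of that sum in Par, 26.9% ± 9.40 in LM2 and 28.6% ± 5.89 in BrM2. Its share lay between 4.18% and 6.39% in the Par libraries and between 20.8% and 37.7% in the metastatic ones, without overlap. PSAT1 transcripts were 13.6 ± 3.19 times as abundant per kilobase as those of PHGDH in Par, 2.56 ± 1.05 times in LM2 and 1.88 ± 0.55 times in BrM2. PSAT1 exceeded PSPH by 2.66 ± 0.14 times in Par and by 2.58 ± 0.42 times in BrM2, but by 5.83 ± 0.96 times in LM2. Transcripts of PHGDH were the scarcest of the 3 in Par, and in LM2 and BrM2 they were more abundant per kilobase than those of PSPH in every library, with ratios of 1.26 to 3.47. This order in LM2 and BrM2 rests on the length of the canonical transcript, 1866 bases for PHGDH and 1974 for PSPH. All exons together span 9187 bases for PHGDH and 2762 for PSPH. By those lengths the order would turn, and the share of PHGDH in the sum would be smaller. Differences of 1 gene between lines do not depend on its length.

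**Figure D2:**
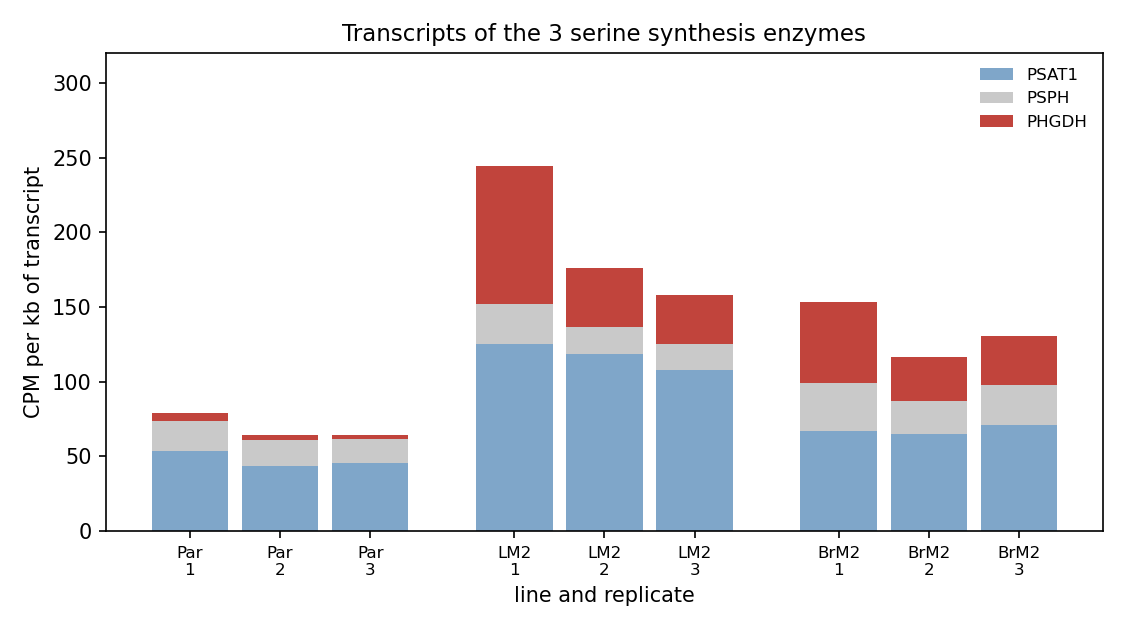
Transcripts of PSAT1, PSPH and PHGDH in each library, in CPM per kb of the canonical transcript, stacked so that the height of a bar is their sum, with the line and replicate number under each bar. The red segment, PHGDH, makes up between 4.18% and 6.39% of a Par bar and between 20.8% and 37.7% of the LM2 and BrM2 bars.

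The promoters of the first 2 enzymes are shown because their transcripts rose together in LM2, by very different factors. Each is the 250 bases before the start of transcription in RefSeq (GRCh38.p14), on the + strand of chr1:119711684-119711933 for PHGDH and chr9:78296875-78297124 for PSAT1. Capitals mark the CCAAT box, CCAAT, read on both strands:
PHGDH: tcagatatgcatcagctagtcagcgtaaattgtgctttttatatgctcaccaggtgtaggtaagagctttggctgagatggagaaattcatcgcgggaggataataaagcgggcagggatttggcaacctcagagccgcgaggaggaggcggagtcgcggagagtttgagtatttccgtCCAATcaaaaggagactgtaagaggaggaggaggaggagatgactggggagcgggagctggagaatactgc
PSAT1: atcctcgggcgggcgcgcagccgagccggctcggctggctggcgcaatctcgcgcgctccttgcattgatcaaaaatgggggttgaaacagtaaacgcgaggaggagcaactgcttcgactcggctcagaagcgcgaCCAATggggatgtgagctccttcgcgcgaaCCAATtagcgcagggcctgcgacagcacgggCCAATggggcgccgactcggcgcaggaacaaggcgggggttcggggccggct
PHGDH carried 1 CCAAT box, which begins 71 bases before the start, and PSAT1 carried 3, which begin 113, 83 and 52 bases before it. Neither window held TGATGNAA, the C/EBP-ATF response element (CARE) that ATF4 can bind, or CACGTG, the E-box that MYC can bind, which says only that these letters are not in these windows. Among the 35116 promoters of the same length, 32% held a CCAAT box, 3.14% a CARE and 6.34% an E-box.

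SHMT2, the mitochondrial serine hydroxymethyltransferase (ENSG00000182199, chr12:57229711-57234935), was measured at 382, 195 and 212 CPM in Par, 869, 315 and 302 CPM in LM2, and 475, 308 and 305 CPM in BrM2. Replicate 1 was the highest in each line, and the Par range overlapped both metastatic ranges through it. Without the replicate number the difference was not called, at 0.91 ± 0.45 in LM2 (adjusted p = 0.318) and 0.46 ± 0.45 in BrM2 (adjusted p = 0.622). Leaving out LM2 replicate 1 gave 0.23 ± 0.33 in LM2 (adjusted p = 0.661), the lowest of the 9 fits without 1 library, whose highest was 1.28. With the replicate number in the model SHMT2 rose in LM2 by 0.81 ± 0.16 (adjusted p = 0.00339) and in BrM2 by 0.51 ± 0.16 (adjusted p = 0.0273). Compared within a replicate number, SHMT2 was higher in all 3 pairs of each comparison, by 1.42-fold to 2.27-fold in LM2 and by 1.24-fold to 1.58-fold in BrM2.

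SHMT1, its cytosolic counterpart (ENSG00000176974, chr17:18327873-18363550), was measured at 74.4, 47.5 and 47.6 CPM in Par, 119, 63.8 and 56.7 CPM in LM2, and 71.0, 44.8 and 55.4 CPM in BrM2. The 3 lines overlapped. With the replicate number in the model SHMT1 rose in LM2 (0.46 ± 0.14, adjusted p = 0.0262; 0.50 ± 0.34 and adjusted p = 0.499 without it). Without LM2 replicate 1, and without the replicate number, the difference was 0.09 ± 0.28 (adjusted p = 0.842). In BrM2 the log2 fold change was 0.01 ± 0.33, or 0.03 ± 0.14 once the replicate number was added (adjusted p = 0.988 and 0.884), and BrM2 exceeded Par in 1 of 3 pairs. SHMT2 exceeded SHMT1 per kilobase by 5.35 ± 0.61 times (SD, n = 3) in Par, 6.86 ± 1.49 times in LM2 and 7.45 ± 0.87 times in BrM2. Exons of SHMT1 overlap SMCR8 on the opposite strand, and the strand that was counted is not given in the sources used here.

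MTHFD2, the mitochondrial methylenetetrahydrofolate dehydrogenase (ENSG00000065911, chr2:74198615-74217565), was measured at 41.4, 31.9 and 38.1 CPM in Par, 56.1, 52.4 and 56.2 CPM in LM2, and 56.0, 61.1 and 58.1 CPM in BrM2. Both metastatic lines lay above Par without overlap, and they overlapped each other. MTHFD2 rose in BrM2 by 0.65 ± 0.17 on the log2 scale (adjusted p = 0.0342), a call kept in 1 of 9 fits that left out 1 library, and by 0.66 ± 0.13 with the replicate number (adjusted p = 0.00168). In LM2 the log2 fold change was 0.57 ± 0.17 (adjusted p = 0.0788), and it passed with the replicate number (0.57 ± 0.13, adjusted p = 0.00534). Of its 50-base stretches 2.57% were shared, mostly with the pseudogene MTHFD2P7.

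MTHFD1L, the mitochondrial enzyme that releases formate (ENSG00000120254, chr6:150865702-151101887), was measured at 77.9, 52.0 and 54.7 CPM in Par, 129.96, 98.3 and 94.8 CPM in LM2, and 94.6, 80.9 and 84.9 CPM in BrM2. All LM2 libraries were above all BrM2 libraries, by a narrow margin, and these were above all Par libraries. Neither difference from Par passed without the replicate number (0.81 ± 0.22, adjusted p = 0.0563 in LM2; 0.50 ± 0.22, adjusted p = 0.200 in BrM2). Both passed with it, at 0.82 ± 0.12 in LM2 (adjusted p = 0.000369) and 0.52 ± 0.12 in BrM2 (adjusted p = 0.00456). MTHFD1L was 1 of the 2 genes whose promoters held a CARE or an E-box, in 2 of its 4 RefSeq starts. The window that begins farthest downstream of those 2 lies on the + strand of chr6:150866236-150866485. Both windows lie inside the annotated gene. It is shown with the CCAAT box, the E-box and the CARE in capitals, in that order, beginning 193, 154 and 129 bases before the start:
MTHFD1L: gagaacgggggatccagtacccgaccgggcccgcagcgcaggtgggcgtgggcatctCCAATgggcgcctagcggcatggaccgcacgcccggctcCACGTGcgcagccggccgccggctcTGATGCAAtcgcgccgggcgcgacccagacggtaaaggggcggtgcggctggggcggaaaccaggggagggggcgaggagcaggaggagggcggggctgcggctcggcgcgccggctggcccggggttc

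ALDH1L2, the mitochondrial formyltetrahydrofolate dehydrogenase (ENSG00000136010, chr12:105019790-105084458), was hardly detected and did not pass the filter on low counts. It had 4, 22 and 24 counts in Par, 6, 14 and 26 in LM2, and 8, 33 and 19 in BrM2, or 0.210 to 1.46 CPM. Replicate 1 was the lowest library in each line, opposite to the 7 genes named above. Tested without the filter, its log2 fold change was -0.24 ± 0.53 in LM2 and 0.43 ± 0.52 in BrM2 (adjusted p = 0.929 and 0.706), and no difference was detected at these low counts. ALDH1L2 overlaps NOPCHAP1 and WASHC4 on the opposite strand.

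SLC1A5, the carrier that takes up glutamine and other neutral amino acids (ENSG00000105281, chr19:46774883-46788594), was measured at 208, 151 and 124 CPM in Par, 380.1, 197 and 211 CPM in LM2, and 409.6, 289.5 and 265 CPM in BrM2. All BrM2 libraries were above all Par libraries, and LM2 overlapped both. The log2 fold change was 0.999 ± 0.32 in BrM2 (adjusted p = 0.0778) and 0.71 ± 0.32 in LM2 (adjusted p = 0.256). With the replicate number SLC1A5 rose in both, by 1.005 ± 0.12 in BrM2 (adjusted p = 9.39e-05) and 0.68 ± 0.12 in LM2 (adjusted p = 0.00174).

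SLC1A4, a carrier of serine and other small neutral amino acids (ENSG00000115902, chr2:64988479-65023865), was measured at 18.6, 11.2 and 11.9 CPM in Par, 34.1, 18.6 and 21.1 CPM in LM2, and 31.8, 23.0 and 28.2 CPM in BrM2. Both metastatic lines lay above Par without overlap, by a narrow margin for LM2 replicate 2. The log2 fold change was 0.99 ± 0.30 in BrM2 (adjusted p = 0.0670) and 0.82 ± 0.30 in LM2 (adjusted p = 0.156). SLC1A4 rose, with the replicate number in the model, by 1.03 ± 0.14 in BrM2 (adjusted p = 0.000232) and 0.81 ± 0.14 in LM2 (adjusted p = 0.00146). Per kilobase SLC1A5 exceeded SLC1A4 by 18.5 ± 2.54 times in Par, 16.7 ± 0.92 times in LM2 and 18.4 ± 3.06 times in BrM2. The ratio in LM2 differed from the other lines by less than their SD, but by more than its own SD.

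**Figure D3:**
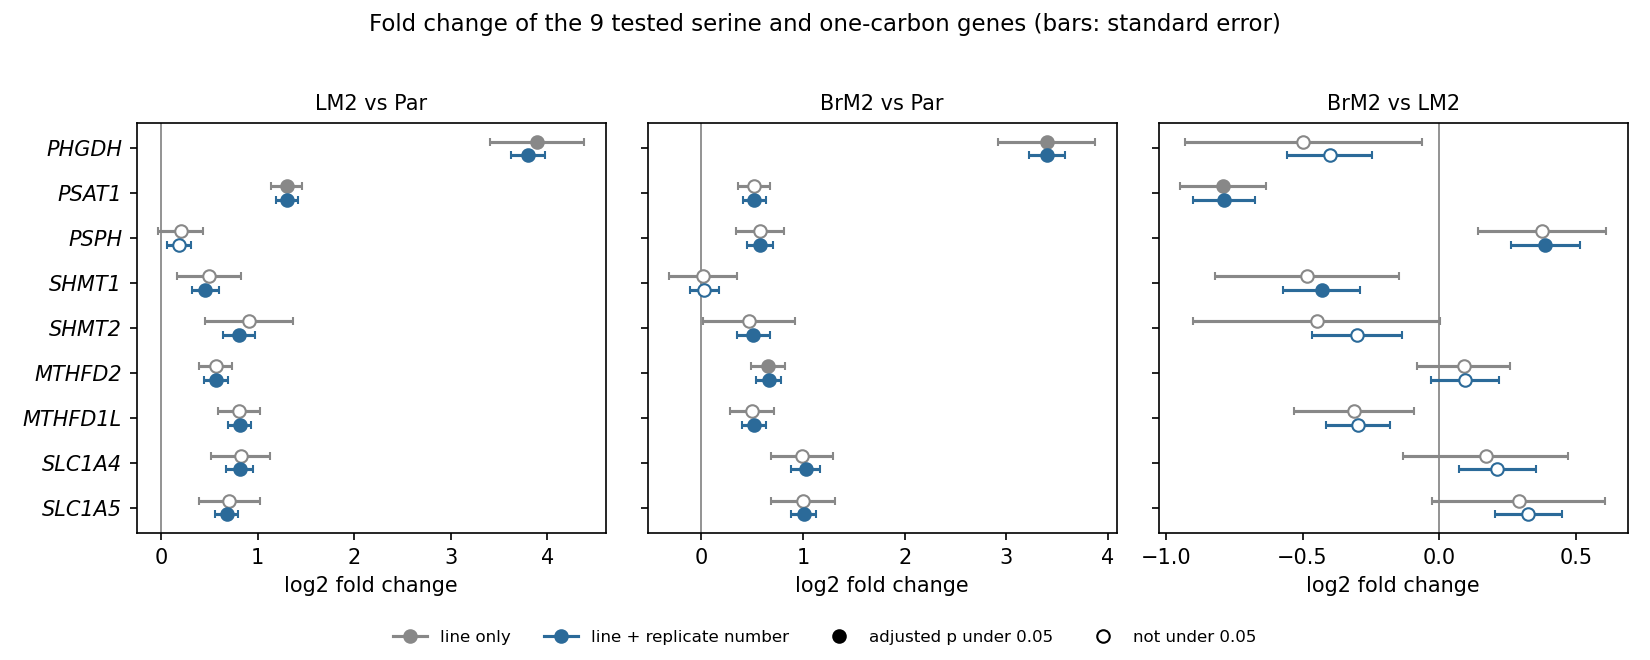
Log2 fold change of the 9 tested genes in LM2 against Par, BrM2 against Par and BrM2 against LM2, with bars for the standard error, from the model with the line only (grey) and with the replicate number added (blue); filled points have an adjusted p under 0.05. All points lie to the right of 0 in the comparisons with Par, and the standard errors shrink with the replicate number.

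Between the metastatic lines, the differences were of both signs, and most were not called in either model. For PSAT1 the value was lower in BrM2 under both models, as given above. With the replicate number SHMT1 was also lower (-0.43 ± 0.14, adjusted p = 0.0328) and PSPH was higher (0.39 ± 0.13, adjusted p = 0.0323). These 3 of 9 genes, 1 higher and 2 lower, stand beside 37.5% of all genes called in that model, 17.8% higher and 19.7% lower. SLC1A5 and SLC1A4, the carriers, differed by 0.33 ± 0.12 and 0.21 ± 0.14 (adjusted p = 0.0568 and 0.258), MTHFD1L by -0.30 ± 0.12 (adjusted p = 0.0653), SHMT2 by -0.30 ± 0.16 (adjusted p = 0.169, and 0.01 ± 0.10 without replicate 1) and MTHFD2 by 0.09 ± 0.12 (adjusted p = 0.586). By their means, PHGDH, PSAT1, SHMT1, SHMT2 and MTHFD1L were ordered Par, BrM2, LM2, and PSPH, MTHFD2, SLC1A4 and SLC1A5 were ordered Par, LM2, BrM2. SHMT1 had nearly equal means in Par and BrM2, at 56.5 and 57.1 CPM. The sign between BrM2 and LM2 turned for PHGDH and SHMT2 without LM2 replicate 1. Besides PSAT1, only MTHFD1L had 3 lines whose libraries did not overlap, with 94.84 CPM in LM2 replicate 3 against 94.64 in BrM2 replicate 1. Both genes were lower in BrM2 than in LM2, where 11.7% of all genes were lower without overlap. The share of all genes with 3 separate lines was not counted.

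Compared per kilobase, SHMT2 was the most abundant of the 10 genes in each line, at 122 ± 48.0 CPM per kb (SD, n = 3) in Par, 229.6 ± 150.1 in LM2 and 168 ± 45.1 in BrM2. SLC1A5 and PSAT1 followed, with PSAT1 ranked 2nd in LM2 (117 ± 8.66 CPM per kb) and SLC1A5 ranked 2nd in Par (55.8 ± 14.9) and BrM2 (111 ± 26.9). PHGDH ranked 8th in Par, at 3.68 ± 1.21 CPM per kb, and 4th in LM2 (54.7 ± 32.6) and BrM2 (38.8 ± 13.4). ALDH1L2 was last in each line, at 0.0837 to 0.133 CPM per kb, and SLC1A4 was 9th, at 3.04 to 6.06 CPM per kb. MTHFD1L kept its 6th place, and MTHFD2 was 7th in Par and 8th in the metastatic lines. These ranks rest on canonical transcript lengths. For SHMT2 that length was 2157 bases, against 4592 for all exons, and such lengths would change the order.

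The genes around PHGDH did not share a rise of its size. Within 1 Mb of it, 8 other genes were tested, with a median log2 fold change of -0.01 in LM2 and 0.30 in BrM2. The highest was 0.16 in LM2 and 0.49 in BrM2, and none of them was called higher. The model had the line only, here and in the rest of this paragraph. The single call was HSD3B1, a steroid dehydrogenase gene named here after its values were seen, whose counts were 119, 99 and 162 in Par and 0 in all 6 metastatic libraries, which allows up to 3 counts in each by counting error alone. NOTCH2 lies on the side of PHGDH away from HSD3B1, and its log2 fold changes were -0.05 and -0.03 (adjusted p = 0.937 and 0.956). Around PSAT1 the picture differed: its 3 tested neighbors, CEP78, GNAQ and VPS13A, had a median log2 fold change of 0.61 in LM2 and -0.50 in BrM2, and of -0.80 in BrM2 against LM2, close to the -0.79 of PSAT1 itself. None of these 3 passed the threshold in any comparison. Over the 487 tested genes of chromosome 9 the median was 0.14 in LM2, -0.37 in BrM2 and -0.48 between BrM2 and LM2, against -0.03 over all genes in the last comparison. Around the other tested genes, the neighbors had medians in BrM2 of 0.48 for MTHFD2, 0.42 for SLC1A4, 0.41 for MTHFD1L and 0.31 for PSPH. MTHFD2 itself stood at 0.65 there. The medians in BrM2 were 0.09 around SHMT1, 0.01 around SLC1A5 and -0.04 around SHMT2. In LM2 the median was 0.42 around MTHFD1L and between -0.26 and 0.12 around the rest of these genes. Whether copy number plays a part was not tested.

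RefSeq promoters were found for 7 of the 10 genes, 13 in all, and not for PSPH, SHMT2 and ALDH1L2. A CCAAT box stood in at least 1 promoter of each of the 7, where 37% of all 27305 genes have one. It stood in 9 of the 13 promoters, where 32% of all 35116 promoters hold one. A CARE stood in promoters of MTHFD1L and SLC1A5 (2 of 7 genes, beside 3.89% of all genes), and so did an E-box (2 of 7 genes, beside 7.73%). By promoter, each motif stood in 3 of the 13, beside 3.14% and 6.34% of all promoters. MTHFD1L has 4 promoters and SLC1A5 has 3, so more windows were searched for them than for genes with 1. Overlapping windows of MTHFD1L held the same sites. In SLC1A5 they belonged to different starts, the CARE beginning 97 bases before one and the E-box 50 bases before another. Every window with a CARE or an E-box lies inside the annotated gene, at a start within it. The SLC1A5 window just before the gene held neither, and for MTHFD1L no window before the gene was listed. A match describes the sequence and does not show that a factor binds there.

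Of 96 further genes of serine, folate, methionine and purine metabolism and of the ATF4 response, 76 were tested. Without the replicate number 2 of them were called in LM2 (ALDH1L1 and PRPS2, both lower), 0 in BrM2, and 3 between the metastatic lines, 1 higher and 2 lower in BrM2, among them ALDH1L1 (higher) and NUPR1 (lower). For the count of 0 from edgeR, 16 genes had an unadjusted p under 0.05, and DESeq2 called 10. Once the replicate number was in the model, 34 were called in LM2 (22 higher and 12 lower) and 39 in BrM2 (24 higher and 15 lower), and 15 between BrM2 and LM2. These are 44.7% and 51.3% of the 76 genes in the comparisons with Par, beside the 34.5% and 42.7% of all genes given above, and 19.7% between the metastatic lines, beside 37.5%. The median log2 fold change of the 76 genes in that model was 0.08 in both LM2 and BrM2, against 0.81 and 0.57 for the 9 serine and one-carbon genes. In BrM2 the medians of the methionine cycle (0.51) and of purine synthesis (0.50) came close to the 0.57. The other lists stood at 0.28 or less there. In LM2 the highest list median was 0.31, for ATF4 and its targets.

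ATF4, the transcription factor that induces genes of serine synthesis when amino acids are short, averaged 262 ± 61.6 CPM (SD, n = 3) in Par, 557 ± 233 in LM2 and 416 ± 84.0 in BrM2. It rose, with the replicate number, by 1.04 ± 0.13 in LM2 (adjusted p = 0.000124) and 0.68 ± 0.13 in BrM2 (adjusted p = 0.00149), and neither was called without it (adjusted p = 0.0693 and 0.226). Of the 23 tested genes of its list, ATF4 included, 11 rose and 2 fell in LM2 and 9 rose and 2 fell in BrM2 with the replicate number, with none called without it in either. The called share was 56.5% and 47.8%, beside 34.5% and 42.7% of all genes. SLC7A11, the cystine carrier, rose by 0.996 ± 0.22 and 0.86 ± 0.22 in that model. DDIT4, an inhibitor of growth signaling through mTORC1, fell by 1.55 ± 0.43 in LM2 and by 1.34 ± 0.45 in BrM2 in that model. Its BrM2 libraries ran from 9.53 to 66.8 CPM and overlapped those of Par, with 2 of 3 pairs lower in BrM2. NUPR1, a stress-induced chromatin protein, took opposite directions, at 1.48 ± 0.29 in LM2 and -1.15 ± 0.35 in BrM2 with the replicate number. ASNS, the asparagine synthetase often used as a readout of ATF4, was counted at 5 to 30 reads per library and was not tested.

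Among the other folate genes, with the replicate number, 3 rose and 4 fell in each comparison with Par, of 15 tested. That is 46.7% in each, beside 34.5% of all genes in LM2 and 42.7% in BrM2, the shares against which the lists that follow also stand. MTHFD1, which carries out the cytosolic steps parallel to MTHFD2 and MTHFD1L, rose by 0.40 ± 0.11 in LM2 and 0.41 ± 0.11 in BrM2 (adjusted p = 0.0147 and 0.0103), and was not called without the replicate number. ALDH1L1, the cytosolic paralog of ALDH1L2, averaged 2.62 CPM in Par, fell to 1.14 in LM2 (-1.21 ± 0.30, adjusted p = 0.0379) and stood at 4.09 in BrM2, above LM2 by 1.85 ± 0.30 (adjusted p = 0.00570). With the replicate number it also rose in BrM2 against Par, by 0.65 ± 0.21 (adjusted p = 0.0299, and 0.205 without it). The folate carriers SLC19A1 and SLC46A1, both at a mean of 5.50 CPM or less, fell with the replicate number in both metastatic lines.

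The lists of purine synthesis and of the methionine cycle held further genes that passed with the replicate number. Of 8 purine genes, 3 rose and 1 fell in LM2, and 5 rose and 1 fell in BrM2 (50% and 75%). ATIC, the bifunctional enzyme that uses formyl folate for the last steps, rose by 0.89 ± 0.12 and 0.92 ± 0.12. PRPS2, a synthetase of the ribose phosphate precursor, fell by 1.25 in LM2 in that model, and it was also called without the replicate number (adjusted p = 0.0113). ADSL, adenylosuccinate lyase, rose in BrM2 by 0.73 ± 0.17 and stood at 0.24 ± 0.17 in LM2 (adjusted p = 0.30). Of 5 methionine cycle genes, 1 rose and 1 fell in LM2 and 3 rose and 1 fell in BrM2 (40% and 80%). MAT2A, which makes S-adenosylmethionine, rose by 0.81 ± 0.14 and 0.75 ± 0.14, and its partner subunit MAT2B rose in BrM2 by 0.51 ± 0.12 and stood at -0.09 ± 0.12 in LM2 (adjusted p = 0.587). AHCY, the hydrolase of the cycle, rose in BrM2 by 0.64 ± 0.15 and stood at 0.23 ± 0.15 in LM2 (adjusted p = 0.267).

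Genes that move or use serine and glycine were called in both directions with the replicate number. Of 9 other carriers tested, 2 rose and 2 fell in LM2, and 1 rose and 2 fell in BrM2 (44.4% and 33.3%). SFXN1, the mitochondrial serine carrier, rose in BrM2 by 0.45 ± 0.11 (adjusted p = 0.00848) and stood at 0.30 ± 0.11 in LM2 (adjusted p = 0.0600), whereas its paralog SFXN3 fell in both, by 0.52 and 0.59. SLC38A4, a neutral amino acid carrier, fell by 0.47 and 0.71. Of 15 genes that use serine or glycine, 2 rose and 2 fell in LM2 and 3 rose and 5 fell in BrM2, which is 26.7% and 53.3% beside 34.5% and 42.7% of all genes. SERINC2 fell by 1.74 and 1.42, SARDH, the sarcosine dehydrogenase, fell by 1.31 in BrM2, and SPTLC2, a subunit of serine palmitoyltransferase, rose by 0.50 ± 0.12 and 0.71 ± 0.12. Of the 4 glycine cleavage genes 1 was tested, and it was not called in any comparison.

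**Figure D4:**
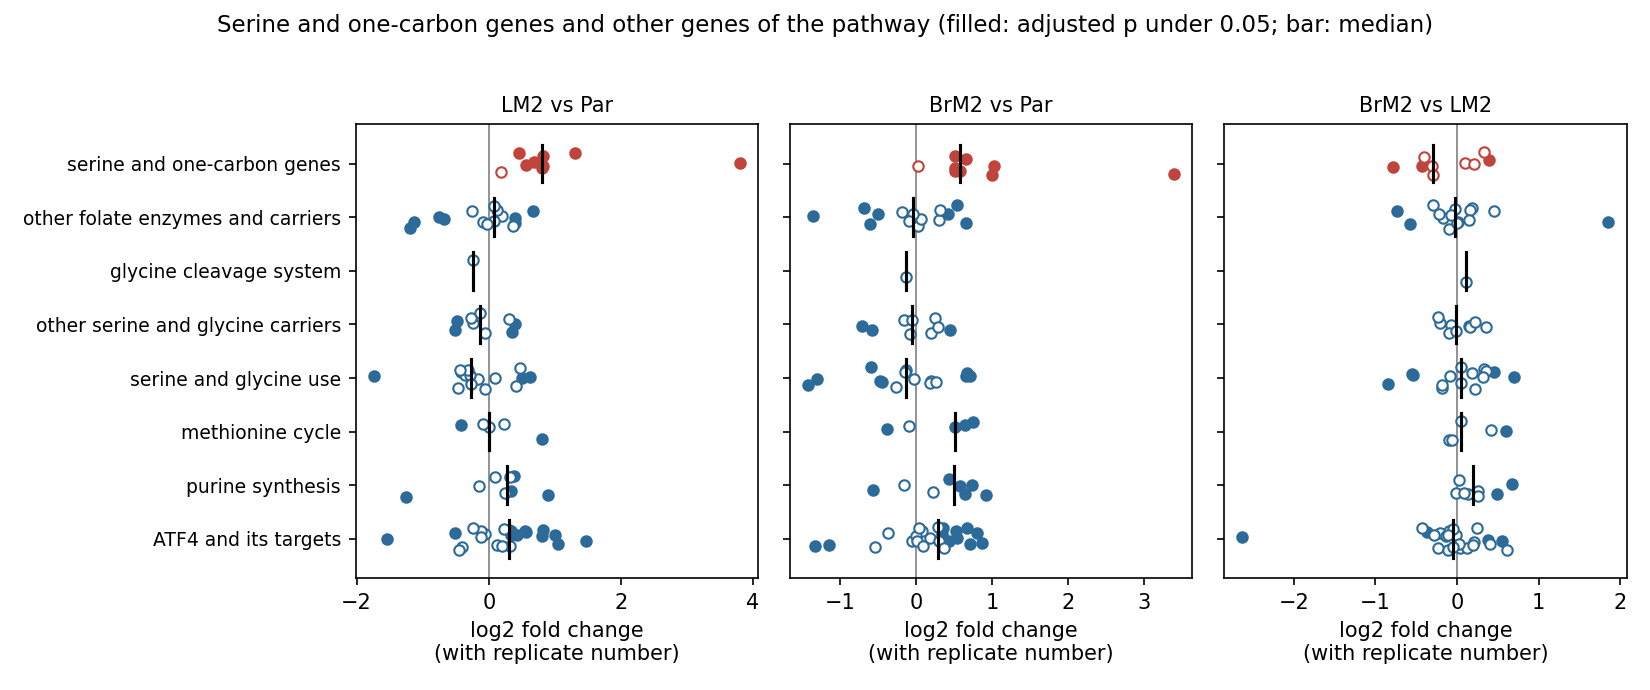
Log2 fold change, from the model with the replicate number, of the 9 tested serine and one-carbon genes (red) and of 76 tested genes in 7 lists of related pathways (blue), 1 point a gene, for the 3 comparisons; filled points have an adjusted p under 0.05 and the black bar is the median of a list. The red medians, 0.81 in LM2 and 0.57 in BrM2, lie above the medians of the 7 lists in both comparisons with Par. In BrM2 the margin is small for the methionine cycle (0.51) and purine synthesis (0.50).

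The 3 genes whose log2 CPM, centered within each replicate number, followed PHGDH most closely over the 9 libraries were RAB15, a GTPase of endosomes, TSPAN14, a tetraspanin, and FEN1, a flap endonuclease of DNA replication, with Pearson correlations of 0.998, 0.998 and 0.997. The 9 points share 3 lines, so the correlation describes how alike the genes stood between lines. RAB15 averaged 10.3 CPM in Par, 28.9 in LM2 and 25.2 in BrM2. TSPAN14 averaged 133, 276 and 254 CPM, and FEN1 averaged 199, 353 and 325 CPM. All 3 were thus lowest in Par and highest in LM2, with ratios between lines well under those of PHGDH.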

How the data were processed

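RNA was sequenced from 3 MDA-MB-231 lines with 3 replicates each. Per the labels and the study's methods, the authors made stranded mRNA libraries (TruSeq), sequenced paired ends, aligned them to hg38 with STAR and deposited raw read counts per gene, without normalization; the submitters' processing notes name CASAVA 1.8.2 and STAR 2.7.0. The strand counted is not given in the sources used here. A deposited table of the authors' own DESeq2 comparisons was not used.

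Of 58887 rows, 3 repeated an identifier with the same counts under another symbol and were dropped. Genes were kept if their largest normalized count exceeded 47.15, the threshold of 100 tried (1 to 200) with the highest loess-smoothed (span 0.3) Jaccard index of replicates, after HTSFilter. This left 13055 genes with 99.64% to 99.78% of the counts, and 9 of the 10 genes described. Lines were compared in edgeR 4.0.16 with TMM factors and the 2-sided quasi-likelihood test over all 9 libraries, with Benjamini-Hochberg adjustment over all genes tested and a threshold of 0.05. SE is the absolute log2 fold change divided by the square root of F. CPM are counts scaled to a TMM-adjusted library size of 1e+06, and per kilobase they are divided by the length of the canonical GENCODE transcript. Ratios, shares and ranks between genes depend on that length. R 4.3.3 ran edgeR, limma 3.58.1 and DESeq2 1.42.0, and Python 3.11.15 ran pandas 2.3.3, numpy 2.4.6 and, for the plots, matplotlib 3.10.9. The tests were tried on simulated data.

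Replicates were harvested at different passages, and the pairing of libraries by number was therefore checked on the data: deviations from the line means correlated between libraries of the same number in all 9 pairs of lines and numbers (0.23 to 0.90), against -0.88 to 0.80 between different numbers. These values set replicate 1 apart and do not show that numbers 2 and 3 pair the libraries. Par replicate 2 correlated at 0.23 with BrM2 replicate 2 and at 0.41 with BrM2 replicate 3. LM2 replicate 3 correlated at 0.80 with BrM2 replicate 2 and at 0.75 with BrM2 replicate 3. Between Par and LM2 the same number correlated more, at 0.50 and 0.81, against 0.39 and 0.67 for numbers 2 and 3 crossed. The numbers were nevertheless taken as pairing the libraries. The fit with the number as a block is given where it changes a call or a count. No 2 replicates agreed within sampling noise (chi-square per degree of freedom 18.2 or more).

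The 10 genes, the 7 pathway lists and the tests were chosen with earlier results of these data known, and the motifs after the values of the genes were known. The text names all 10 genes; ATF4, ASNS, MTHFD1, SLC7A11 and SFXN1; in each list the up to 3 called genes with the largest change in each model; and the 3 genes most like PHGDH, the gene with the largest range of line means. Gene positions and promoters came from RefSeq (GRCh38.p14), and transcript lengths and shared 50-base stretches from GENCODE transcripts. Genes overlapping on the opposite strand were considered if they averaged 10 counts or more. Not every gene that these rules select is reported here. Alternatives were the replicate block with and without a GC offset (99.5% of genes had a GC value), RLE factors, DESeq2 with and without the block, 2 other filters, a fit of only the 2 lines compared, and leaving out each library or replicate number.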

Additional observations from a re-analysis of the deposited data

Results flagged for a closer look

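The changes of LM2 and BrM2 from Par differed from each other, by the direct test between the metastatic lines, for 3 of the 9 tested genes. PSAT1 was lower in BrM2 than in LM2 by a log2 fold change of -0.79 in the model with the line only and of -0.79 with the replicate number. PSPH was higher in BrM2 by 0.39 and SHMT1 differed by -0.43, both past the threshold only with the replicate number in the model. For comparison, 37.5% of all genes tested were called between the 2 lines in that model.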

How the results depend on the processing

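PHGDH kept its direction and its call in both comparisons with Par under each alternative that used all libraries and in all 9 fits without 1 library, as did PSAT1 in LM2, and both lost the call without replicate 2 or without replicate 3 unless the replicate block was in the model. The counts of called genes depended on the replicate block. Of the 9 serine and one-carbon genes, 2 were called in LM2, 2 in BrM2 and 1 between the metastatic lines; with the replicate block the counts were 8, 8 and 3, with the block and a GC offset 8, 8 and 6 (beside 44.8%, 55.7% and 49.2% of all genes), and with DESeq2 and the block 8, 8 and 5 (35.3%, 42.7% and 37.8%). DESeq2 without the block gave 4 in LM2 and 5 in BrM2 (14.5% and 19.3%). A fit of only the 2 lines compared gave 1 in BrM2 and 0 between the metastatic lines, and no filter gave 0 there (1 at an unadjusted p under 0.05 in edgeR in both cases). Of all genes, 12% and 4.58% were called in the fits of 2 lines, and 4.25% between the metastatic lines without the filter. For the pathway genes the counts were 2, 0 and 3, with the replicate block 34, 39 and 15, with the block and a GC offset 47, 44 and 29, with DESeq2 10, 10 and 5, and with DESeq2 and the block 34, 35 and 16. No filter gave 4 in LM2 and 3 in BrM2 (4.4% and 6.36% of all genes), and a fit of the 2 lines 3 in BrM2 (12%). The causes were not tested.

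Leaving out 1 library gave 2 to 3, 1 to 4 and 0 to 1 of the 9 genes, and 1 to 5, 0 to 5 and 2 to 3 pathway genes. Of all genes, 4.53% to 9.7%, 7.21% to 16.2% and 4.17% to 9.28% were called in those fits. Leaving out a replicate number gave 0 to 7, 0 to 8 and 0 to 3 of the 9 genes and 0 to 29, 0 to 35 and 0 to 16 pathway genes, beside 0.536% to 33.1%, 1.22% to 40.4% and 0.406% to 32.6% of all genes: the highest counts were without replicate 1, and the counts of 0 without replicate 2 or 3, where edgeR found 1 to 2 of the 9 genes at an unadjusted p under 0.05. With the replicate block as well, an alternative chosen after seeing the data, the ranges were 6 to 8, 4 to 8 and 2 to 5, and 12 to 28 (25 without replicate 1), 15 to 37 and 7 to 17. Beside them stood 16.5% to 32.3%, 23.1% to 44.8% and 15.8% to 41.2% of all genes.

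The sign of 4 uncalled differences turned. SHMT1 in BrM2 was -0.0033 with the block and a GC offset and ran from -0.17 to 0.26 over fits without a library or number (-0.0201 without replicate 3 with the block). Without LM2 replicate 1, PSPH in LM2 was -0.017 (range to 0.33) and, between BrM2 and LM2, PHGDH was 0.11 (range from -0.82) and SHMT2 0.23 (range from -0.71). Without replicate 1, SHMT2 was 0.0062, and 0.0060 with the block. ALDH1L2 had at most 33 counts in a library, and the reason for its low counts was not tested.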
